A study of Mus musculus with 18 samples.

Results

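Sphingosine-1-phosphate (S1P) receptors and the genes that control lymphocyte egress were followed across leukocytes that stayed in, or left, an inflamed tissue. The set comprised 10 genes, matched by Ensembl identifier, out of 49585 genes in the count table. It held the 5 S1P receptors S1pr1, S1pr2, S1pr3, S1pr4 and S1pr5, the transcription factor gene Klf2, the activation marker gene Cd69, and 3 genes that make, destroy or export the ligand (Sphk1, Sgpl1 and Spns2). All 10 were found in the table, and all 10 passed the filter on low counts that left 18156 genes for testing.

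The 18 libraries came from Kaede mice, whose cells carry a fluorescent protein that violet light turns from green to red for good, so that a red cell found in a lymph node (LN) is known to have come from the illuminated tissue. Mice received OVA-specific OT-II CD45.1 CD4+ T cells polarised to Th1, were immunised with OVA in adjuvant, and were challenged with 100 µg of heat-aggregated ovalbumin (HAO) in the footpad (joint) or the ear pinna (skin). Red CD45+ cells, CD45 being a surface protein of all leukocytes, were then sorted from the tissue (nonmigrated) or from its draining LN (migrated), which gave 4 inflamed groups of 3 libraries each, nonmigrated and migrated cells of the joint and of the skin. In 2 further groups of 3 libraries, the labels describe leukocytes that had moved from joint or ear to the node at steady state (joint steady node and skin steady node). The mice were age- and sex-matched and were pooled for each library. Every group thus shared the Kaede strain, and in the 4 inflamed groups also the transferred OT-II cells and the immunisation. The sorting text names red cells for all samples, but the joint steady titles carry PBS and the letters KG, which the labels do not spell out, and the skin steady titles say Naive. The steady-state groups may thus differ in treatment as well as site, which cannot be told apart in any comparison of the nodes. They are read here only as node leukocytes whose labels give no HAO dose, and not as like baselines. Whether they were red cells that had come from the tissue is not settled. Where migrated cells are set against them, inflammation therefore cannot be told apart from the kind of node cell sorted.

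S1P is a lipid that is abundant in blood and lymph and scarce inside tissues. Lymphocytes sense this gradient with S1PR1, a receptor that couples to Gi proteins and draws cells out of tissues and nodes, whereas S1PR2 couples to G12/13 proteins and can hold cells back. KLF2 switches on S1pr1 and homing receptors in resting T cells, and CD69, which appears on activated lymphocytes, binds S1PR1 at the membrane and takes it inside. SPHK1 phosphorylates sphingosine to S1P, SGPL1 (the S1P lyase) cleaves S1P irreversibly, and SPNS2 carries S1P out of cells, above all out of endothelium.

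RefSeq promoter windows (250 bases before the annotated start, build GRCm38.p6) were on hand for 8 of the 10 genes, all but S1pr1 and Cd69. They were searched on both strands for CACCC, the core of the motif that KLF-type factors read. Another pattern was a loose form of the MEF2 motif (CTA, then NNNN, then TAG, with any base at N). MEF2 factors are known to switch on Klf2 downstream of the kinase ERK5 (gene Mapk7). The pattern TGANTCA, found in 6.75% of mouse promoter windows, was searched too. It matched only windows of Sphk1, which are not printed here. The windows printed here were chosen because they belong to the regulator Klf2, to the receptors S1pr4 and S1pr5, which were higher in migrated cells at both sites, and to S1pr2, which was lower. Klf2 lies at chr8:72318812-72319061 on the plus strand, S1pr4 at chr10:81500138-81500387, S1pr5 at chr9:21248444-21248693 and S1pr2 at chr9:20976794-20977043 on the minus strand. Each is written 5′ to 3′ on the strand of the gene, with the MEF2 motif in capitals for Klf2 and the CACCC matches (GGGTG on the other strand) in capitals for the receptors.
Klf2: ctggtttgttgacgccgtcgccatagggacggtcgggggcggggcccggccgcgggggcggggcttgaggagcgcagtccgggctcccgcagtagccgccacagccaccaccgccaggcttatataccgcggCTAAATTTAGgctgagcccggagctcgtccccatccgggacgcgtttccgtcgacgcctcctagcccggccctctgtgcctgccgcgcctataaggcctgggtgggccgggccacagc
S1pr4: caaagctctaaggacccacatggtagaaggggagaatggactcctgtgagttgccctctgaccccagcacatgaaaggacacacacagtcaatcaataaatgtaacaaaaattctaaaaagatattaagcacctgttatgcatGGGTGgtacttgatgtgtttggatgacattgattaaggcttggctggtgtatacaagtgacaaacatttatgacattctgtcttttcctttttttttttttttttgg
S1pr5: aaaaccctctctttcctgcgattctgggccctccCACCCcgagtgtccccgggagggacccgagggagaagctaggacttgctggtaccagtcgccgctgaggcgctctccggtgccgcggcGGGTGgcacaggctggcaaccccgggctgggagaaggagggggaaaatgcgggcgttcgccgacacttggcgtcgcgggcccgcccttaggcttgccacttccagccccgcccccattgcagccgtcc
S1pr2: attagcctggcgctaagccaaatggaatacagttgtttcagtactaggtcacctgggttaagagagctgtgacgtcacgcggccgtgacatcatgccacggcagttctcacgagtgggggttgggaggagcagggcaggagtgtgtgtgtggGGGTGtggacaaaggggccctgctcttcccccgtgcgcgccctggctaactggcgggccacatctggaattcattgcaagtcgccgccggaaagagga
The Klf2 window held 1 MEF2 motif, CTAAATTTAG, whose first base lies at -118 from the start, and also 1 CACCC match. Of 32851 mouse promoter windows of the same length, 3.2% held the loose form of the MEF2 motif, with any base at N, and 52.0% held CACCC. The S1pr4 and S1pr2 windows held 1 CACCC match each and the S1pr5 window 2, which is a description of these letters and no sign of binding.

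Assigned counts per library ran from 19239531 to 43814403. The 6 inflamed skin libraries (19239531 to 22528895) were shallower than the other 12 (28577566 to 43814403) and carry another style of column name, so in comparisons of inflamed skin with any other group, site or inflammation cannot be told apart from whatever that style and depth reflect. Levels are given as CPM (counts per 1000000 counts, after TMM scaling of library sizes), and as CPM per kb of exon wherever different genes are compared. A gene was called where edgeR's quasi-likelihood test gave a Benjamini-Hochberg adjusted p under 0.05 over all tested genes and the log2 fold change passed 1 in either direction. The words rose and fell are kept for called genes, and SE is the standard error that follows from the fit. Migrated cells came from the node and nonmigrated cells from the tissue, so migration cannot be told apart from the organ sampled. The phrase with migration names this contrast, not a change followed in the same cells. Since each library is a pool of mice, the tests measure the spread between pools.

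The sorted populations differed in cell type markers, and these values stand beside every result on the members. The summed level of 8 T cell markers averaged 294 CPM (range 189 to 377) in joint nonmigrated and 2080 CPM (1700 to 2380) in joint migrated cells, and 704 CPM (337 to 947) and 2070 CPM (2020 to 2160) in the skin groups. Neutrophil markers, 7 genes, went the other way, from 10200 CPM (5140 to 16000) to 53.2 CPM (34.5 to 89.8) in the joint and from 2080 CPM (1580 to 2600) to 20.6 CPM (13.4 to 26.0) in the skin, and the monocyte and macrophage markers from 5560 to 554 CPM and from 3660 to 610 CPM. Migrated cells thus held more T cell transcripts, and nonmigrated cells more neutrophil and macrophage transcripts. The steady nodes were unlike each other here. Neutrophil markers averaged 646 CPM (418 to 821) in the joint steady node and 14.8 CPM (11.1 to 17.9) in the skin steady node. Between these nodes 7 of 7 were called higher in the joint, as were 4 of 7 monocyte and macrophage markers (325 against 178 CPM). In joint migrated cells 7 of 7 neutrophil markers were called lower than in the joint steady node. B cell markers (7 genes) averaged 191 CPM in joint nonmigrated, 1080 CPM in joint migrated, 24.8 CPM in skin nonmigrated and 231 CPM in skin migrated cells, against 4990 CPM and 3740 CPM in the joint and skin steady nodes. The sum of 7 dendritic cell markers was also higher in migrated cells, at 322 and 3490 CPM in joint nonmigrated and migrated cells. In the skin it was 989 and 4650 CPM, and in the joint and skin steady nodes 28.7 and 34.4 CPM. Single markers were not uniform, with 4 of 7 called higher and 1 lower in the joint, and 4 higher and 3 lower in the skin. Fscn1 made up most of the sum in migrated cells (2419 CPM in the joint and 3224 CPM in the skin). In bulk samples a smaller number of cells of a type and less RNA per cell cannot be told apart, and the part of cell type make-up in any difference between members was not tested. Ptprc, the gene of CD45, averaged 1260 to 2290 CPM over the 6 groups.

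**Figure D1:**
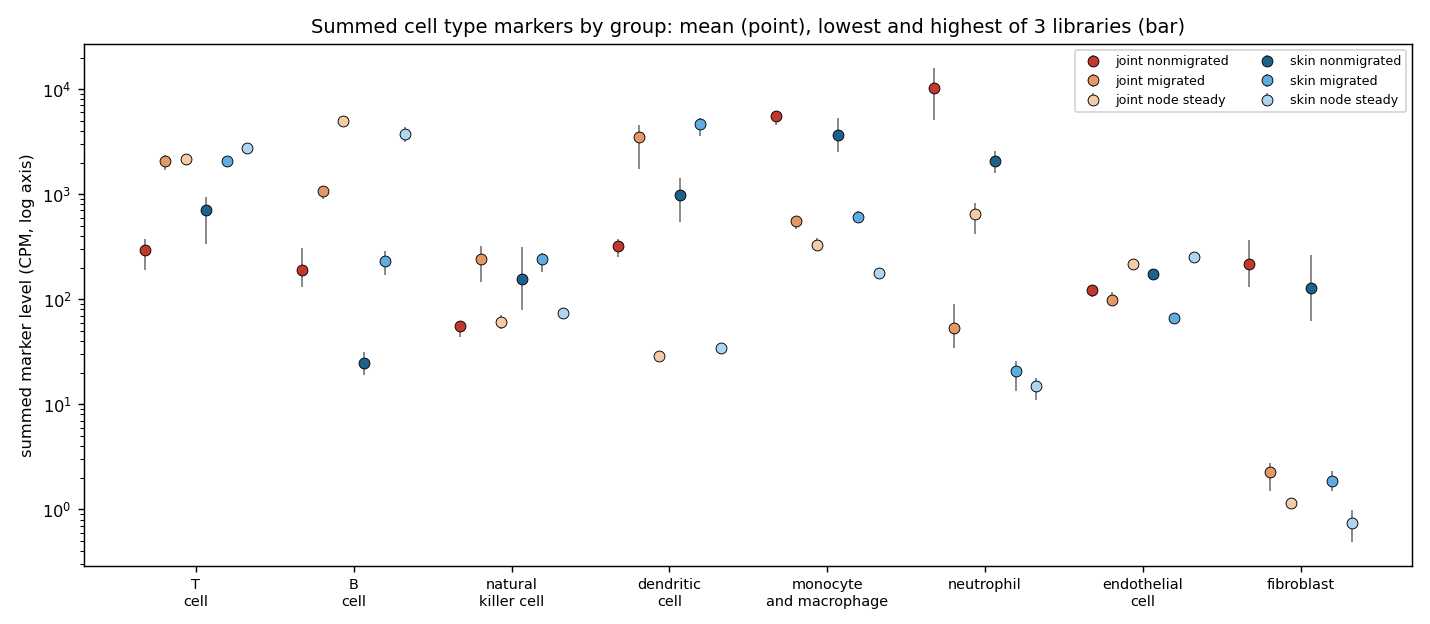
Summed level of cell type markers (CPM, log axis) for 8 cell types in the 6 groups, with the mean as a point and the lowest and highest of 3 libraries as a bar. T and B cell markers were low and neutrophil and macrophage markers high in both nonmigrated groups. The dendritic cell marker sum was high in both migrated groups, although single markers went both ways.

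S1pr1 and S1pr4 rose, and Sphk1 and Sgpl1 fell, in cells that had left the tissue, at both sites. Of the 10 genes, 6 were called in joint cells that had migrated against those that had not, 3 higher and 3 lower, against 34.2% of all tested genes (16.2% higher and 18% lower). In the skin 9 were called, 5 higher and 4 lower, against 35.4% of all genes (15.8% higher and 19.6% lower). S1pr1, S1pr4 and S1pr5 were called higher, and S1pr2, Sphk1 and Sgpl1 lower, at both sites. The S1pr5 call was lost in 5 of 13 alternative settings at each site. The median log2 fold change of the 10 genes was 0.59 in the joint and 0.77 in the skin, where that of all genes was 0.03 and 0.01.

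**Figure D2:**
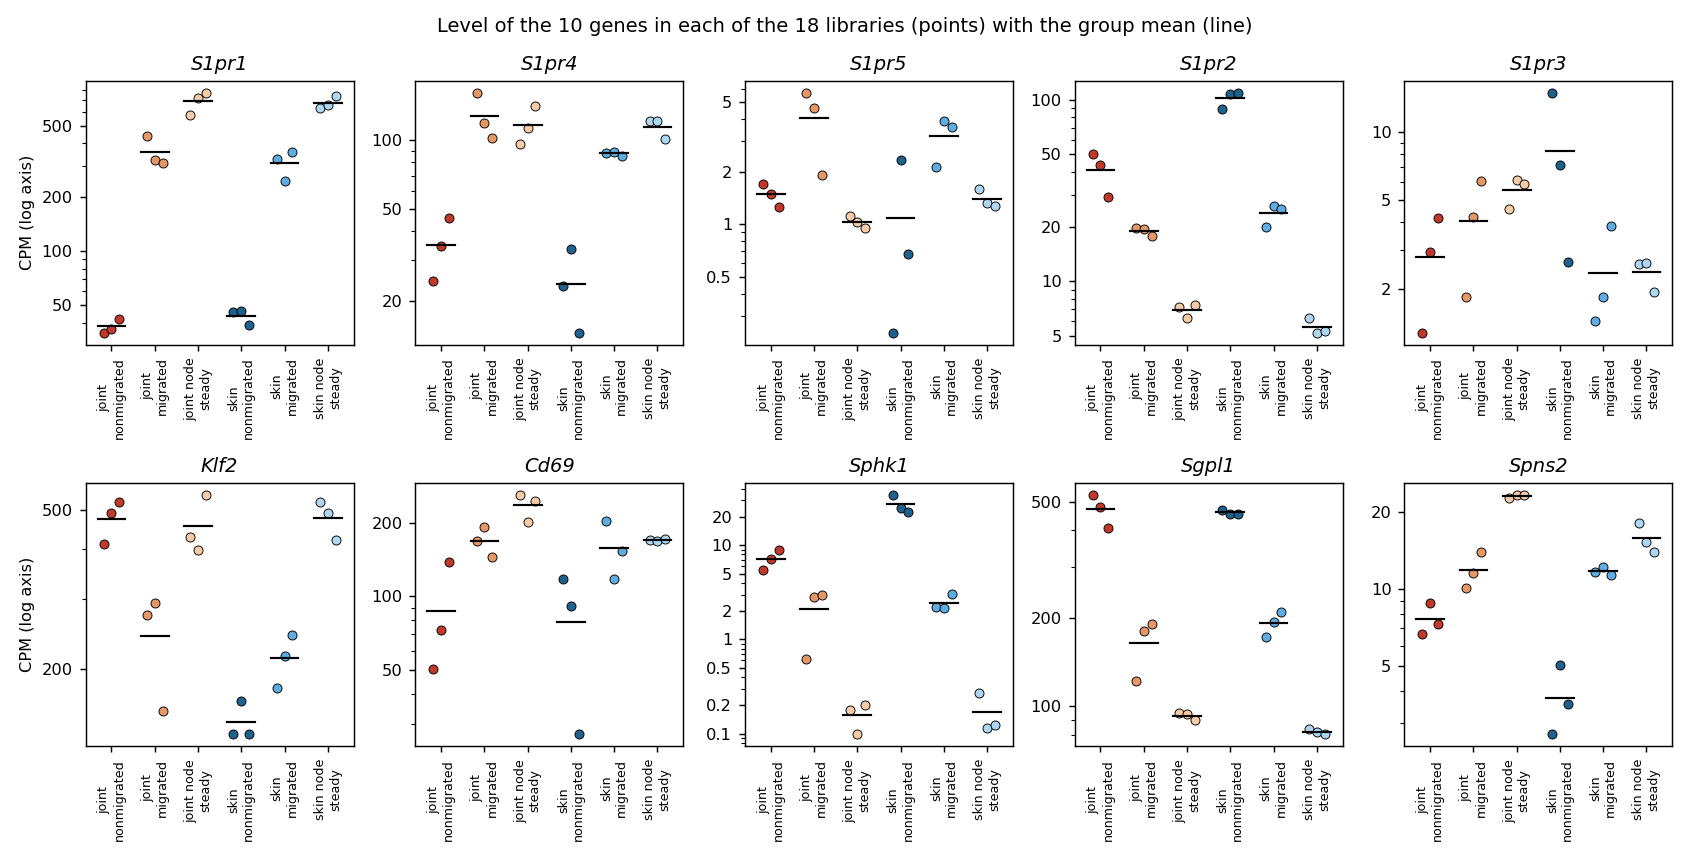
Level of each of the 10 genes (CPM, log axis) in every library, grouped by population, with the group mean as a line. S1pr1 stepped up from nonmigrated to migrated to steady-state cells at both sites, and S1pr2 and Sphk1 stepped down.

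S1pr1 (ENSMUSG00000045092, chr3:115710433-115715072, minus strand, GRCm38 as for all gene positions here), the receptor through which lymphocytes leave tissues, showed the largest difference with migration of the 10 genes in the joint. Joint nonmigrated libraries 1 to 3 held 35.2, 36.9 and 42.1 CPM, and joint migrated libraries held 443, 325 and 313 CPM. Skin nonmigrated libraries held 45.9, 46.4 and 38.5 CPM, and skin migrated libraries held 328, 248 and 359 CPM. The 2 states did not overlap at either site, and the lowest migrated library was far above the highest nonmigrated library. S1pr1 rose 9.47-fold in the joint (log2 fold change 3.24, SE 0.18, adjusted p 4.56e-10) and 7.15-fold in the skin (2.84, SE 0.17, adjusted p 1.18e-09). The difference between the sites in this change was 0.41 on the log2 scale (SE 0.23, adjusted p 0.257), which did not pass the test. The call held under all 13 alternative settings tried at each site.

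In the steady-state nodes S1pr1 stood higher still, at 578, 718 and 766 CPM for the joint and 629, 654 and 736 CPM for the skin. No migrated library reached the lowest steady-state library. In skin migrated cells S1pr1 was 2.16-fold below its steady node (log2 fold change -1.11, SE 0.16, adjusted p 2.28e-05), a fall that dropped under the fold limit without skin migrated replicate 2 (-0.97). In the joint the difference, -0.93 (SE 0.16, adjusted p 0.000213), passed the p limit and missed the fold limit by a little, and passed both without joint migrated replicate 1 (-1.11) or without joint steady replicate 1 (-1.04). The order of group means was thus joint steady, skin steady, joint migrated, skin migrated, skin nonmigrated and joint nonmigrated. Of the neighbouring steps in that order, skin steady to joint migrated and skin migrated to skin nonmigrated differed beyond their spread (adjusted p 0.000227 and 1.18e-09), and the other 3 did not pass the test. B cell markers were higher with S1pr1 in the steady nodes (4990 CPM against 1080 CPM in the joint), while 0 of 8 T cell markers were called higher and 1 lower in joint migrated than joint steady cells, and their part in the result was not tested.

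S1pr4 (ENSMUSG00000044199, chr10:81497747-81500132, minus strand), a receptor expressed by most haematopoietic cells, followed S1pr1 across migration but not across the steady-state nodes. It stood at 24.2, 34.5 and 45.9 CPM in joint nonmigrated, 160.4, 118 and 102 CPM in joint migrated and 95.8, 113 and 140.5 CPM in joint steady libraries. In the skin the values were 23.1, 33.4 and 14.5 CPM, then 88.3, 88.9 and 85.6 CPM, then 121, 121 and 101 CPM in the same order. Nonmigrated libraries were the low ones throughout, with no overlap with migrated libraries. S1pr4 rose 3.64-fold in the joint (log2 fold change 1.86, SE 0.26, adjusted p 1.34e-05) and 3.7-fold in the skin (1.89, SE 0.27, adjusted p 1.42e-05). Against the steady nodes it differed by 0.12 (SE 0.25, adjusted p 0.725) in the joint and -0.38 (SE 0.25, adjusted p 0.206) in the skin, and neither passed the test.

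S1pr5 (ENSMUSG00000045087, chr9:21242912-21248443, minus strand), the receptor by which natural killer cells leave nodes and marrow, was rare and averaged highest in migrated cells. It stood at 1.7, 1.49 and 1.26 CPM in joint nonmigrated and 5.67, 4.63 and 1.91 CPM in joint migrated libraries, and at 0.24, 2.34 and 0.68 CPM in skin nonmigrated and 2.14, 3.9 and 3.64 CPM in skin migrated libraries. The skin ranges touched through nonmigrated replicate 2. S1pr5 rose 2.73-fold in the joint (log2 fold change 1.45, SE 0.49, adjusted p 0.0186) and 2.97-fold in the skin (1.57, SE 0.53, adjusted p 0.0182), and 5 of 13 alternative settings lost the call at each site. Leaving out joint nonmigrated replicate 3, joint migrated replicate 1 or joint migrated replicate 2 gave 1.34, 1.13 and 1.35 (adjusted p 0.0593, 0.087 and 0.0535), and leaving out skin nonmigrated replicate 3 or skin migrated replicate 2 gave 1.32 and 1.42 (adjusted p 0.0663 and 0.0542). It was also 3.93-fold above the joint steady node (1.97, SE 0.50, adjusted p 0.0044) and 2.3-fold above the skin steady node (1.2, SE 0.50, adjusted p 0.0479), a call that 7 of 13 settings lost, among them leaving out skin migrated replicate 2 or 3 or any skin steady library (1.04 to 1.30). The sum of 6 natural killer markers also averaged highest in migrated cells, at 55.4, 240 and 61.3 CPM in joint nonmigrated, migrated and steady cells. In the skin groups it was 157, 241 and 73.4 CPM, and nonmigrated libraries (78.4 to 312 CPM) overlapped migrated ones (182 to 277 CPM). Of these markers, 6 of 6 were called higher in migrated cells of the joint and 2 of 6 in the skin. The part of natural killer cells in the result was not tested. The annotated gene Gm48303 overlaps S1pr5 on the opposite strand.

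S1pr2 (ENSMUSG00000043895, chr9:20962361-20976781, minus strand), the receptor that restrains movement, ran in the opposite direction to S1pr1 at every step. Joint nonmigrated libraries held 50.3, 43.9 and 29.2 CPM, joint migrated 19.6, 19.4 and 17.9 CPM, and joint steady 7.25, 6.26 and 7.37 CPM. In the skin the 3 groups held 89.4, 107 and 109 CPM, then 19.8, 26.1 and 25.0 CPM, then 6.28, 5.21 and 5.29 CPM. No pair of these groups overlapped within a site. S1pr2 fell 2.17-fold with migration in the joint (log2 fold change -1.12, SE 0.17, adjusted p 2.51e-05) and 4.31-fold in the skin (-2.11, SE 0.17, adjusted p 3.21e-08). Without joint nonmigrated replicate 1 the joint value was -0.95, under the fold limit. Migrated cells in turn stood 2.72-fold above the joint steady node (1.44, SE 0.17, adjusted p 4.7e-06) and 4.22-fold above the skin steady node (2.08, SE 0.18, adjusted p 5.57e-08). Among nonmigrated cells, S1pr2 was 2.47-fold lower in the joint than in the skin (-1.31, SE 0.17, adjusted p 2.98e-05).

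S1pr3 (ENSMUSG00000067586, chr13:51408639-51422797, plus strand), a receptor mainly of vascular and stromal cells, stayed low and uneven. In the joint it ranged from 1.29 to 4.15 CPM in nonmigrated cells, 1.85 to 6.09 CPM in migrated cells and 4.56 to 6.14 CPM in the steady node. In the skin groups it ranged from 2.65 to 14.9, 1.44 to 3.81 and 1.96 to 2.62 CPM in the same order. It fell in the skin with migration (log2 fold change -1.79, SE 0.57, adjusted p 0.0126), although the ranges overlapped and the call rested on skin nonmigrated replicate 1, at 14.9 CPM. Without that library the value was -0.92 (adjusted p 0.175), and without skin migrated replicate 1 it was -1.53 (adjusted p 0.0551). The joint value was 0.54 (SE 0.54, adjusted p 0.418). Fibroblast markers, 7 genes, were near 0 outside the tissues, with means of 218 and 129 CPM in joint and skin nonmigrated cells and 0.747 to 2.27 CPM in the other 4 groups, and the annotated gene Gm32834 overlaps S1pr3 on the opposite strand.

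Per kb of exon, the receptor mix was unlike in the 3 states. The 5 receptors summed to 33.5 ± 4.59 CPM per kb (SD, n = 3) in joint nonmigrated, 176 ± 36.3 in joint migrated and 277 ± 41 in joint steady cells, and to 39.3 ± 5.96, 144 ± 18.1 and 271 ± 13.6 in the skin groups. S1pr1 made up 37.5% ± 2.05 of the sum in joint nonmigrated, 67.1% ± 1.29 in joint migrated and 81.5% ± 1.10 in joint steady cells, and 36.6% ± 2.57, 70.8% ± 4.46 and 81.6% ± 2.66 in the skin (SD, n = 3). S1pr1 was thus the minority of receptor transcripts in cells still in the tissue and the majority elsewhere. The share of S1pr2 was 16.0% ± 6.11 in joint nonmigrated and 33.1% ± 6.97 in skin nonmigrated cells, and 0.26% to 2.1% in the other 4 groups on average. S1pr4 filled 42.9% ± 7.70 of the joint nonmigrated and 24.6% ± 6.37 of the skin nonmigrated sum. Which of S1pr4 and S1pr2 took more in joint nonmigrated cells turned on the length used. Without division by length their shares there were 29.2% and 35.0%, and per kb of coding sequence 28.2% and 37.0%, so the order of these receptors in joint tissue cells is not settled. In skin nonmigrated cells S1pr2 was above S1pr4 on all 3 scales (57.3% against 13% without length). As a ratio within libraries, S1pr1 stood 2.48-fold and 1.12-fold above S1pr2 in joint and skin nonmigrated cells, 49.2-fold and 34.3-fold above it in migrated cells, and 257-fold and 315-fold above it in the steady nodes (geometric means of ratios of CPM per kb of exon). In nonmigrated cells this direction also turned with the length used, since the ratio was 0.946 (joint) and 0.428 (skin) without division by length and 0.872 and 0.395 per kb of coding sequence. In migrated cells and steady nodes S1pr1 stayed above S1pr2 on each scale, at 12.1-fold or more.

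**Figure D3:**
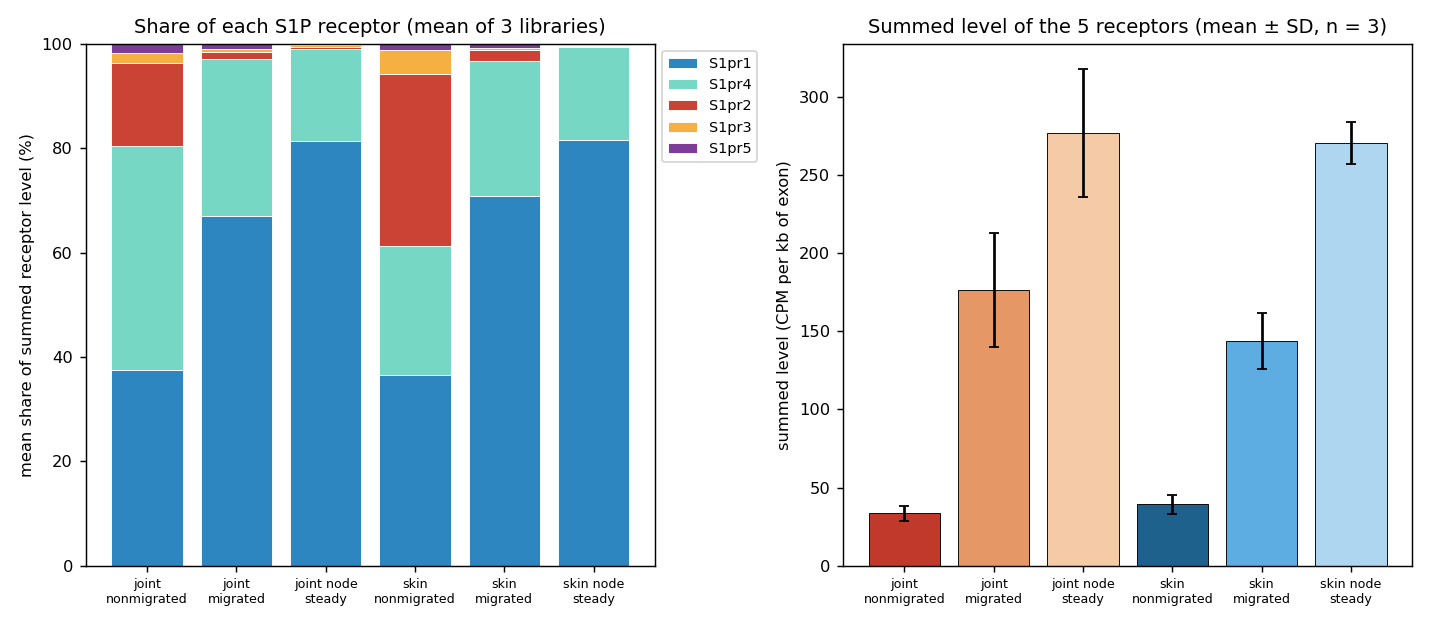
Left, mean share (%) of each S1P receptor in the summed receptor level per kb of exon, and right, that sum as mean ± SD of 3 libraries (CPM per kb). S1pr1 was 37.5% and 36.6% of the sum in nonmigrated cells, 67.1% and 70.8% in migrated cells and 81.5% and 81.6% in the steady nodes.

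Klf2 (ENSMUSG00000055148, chr8:72319033-72321656, plus strand), the factor that switches on S1pr1 in resting T cells, did not follow S1pr1 in the joint. Joint nonmigrated libraries held 412, 492 and 525 CPM, joint migrated 274, 293 and 157 CPM, and joint steady 430.1, 397 and 548 CPM. Skin nonmigrated libraries held 137, 166 and 137 CPM, skin migrated 179, 216 and 243 CPM, and skin steady 525, 493 and 421 CPM. Cells still in the joint thus overlapped the steady-state node cells, while cells still in the skin averaged lowest of all groups and overlapped none of the other skin libraries. With migration the log2 fold change was -0.98 in the joint (SE 0.20, adjusted p 0.000511), just inside the fold limit, and 0.53 in the skin (SE 0.20, adjusted p 0.0307). The difference between the sites was tested as an interaction of site and migration, which was called for Klf2 alone of the 10 genes (log2 difference -1.52, SE 0.28, adjusted p 0.00234), against 9.17% of all genes, and the call held in 18 of 19 alternative settings. A call of 1 in 10 genes lies near the 9.17% of all genes, so the count is not read as a result about the set. Leaving out single libraries gave 1 to 4 called members. The joint value itself passed the fold limit without joint nonmigrated replicate 1 (-1.07), joint migrated replicate 1 (-1.08) or joint migrated replicate 2 (-1.14).

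Among nonmigrated cells Klf2 was 3.24-fold higher in the joint than in the skin (log2 fold change 1.70, SE 0.20, adjusted p 1.75e-05), and the call held in all 13 settings. The difference did not pass the test in migrated cells (0.18, SE 0.20, adjusted p 0.661) or in the steady nodes (-0.07, SE 0.20, adjusted p 0.926). Against the steady node Klf2 was 2.26-fold lower in skin migrated cells (-1.17, SE 0.20, adjusted p 0.000112) and 1.9-fold lower in joint migrated cells, where the value (-0.93, SE 0.20, adjusted p 0.00138) missed the fold limit but passed it without joint migrated replicate 1 (-1.03), joint migrated replicate 2 (-1.09) or joint steady replicate 2 (-1.02). Several rapid-response genes differed along with Klf2 between the nonmigrated groups. Fos, Fosb, Nr4a1, Nr4a2 and Egr2 were called higher in joint than in skin nonmigrated cells, Fos at 4115 against 1099 CPM and Fosb at 1643 against 166 CPM, while Il2ra and Tnfrsf9 were called lower, and Egr1 and Jun did not pass the test. The labels describe mechanical homogenisation for joint tissue only. Neutrophil markers were also higher there (10200 against 2080 CPM, 5 of 7 called), and the part of either in the Klf2 result was not tested.

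**Figure D4:**
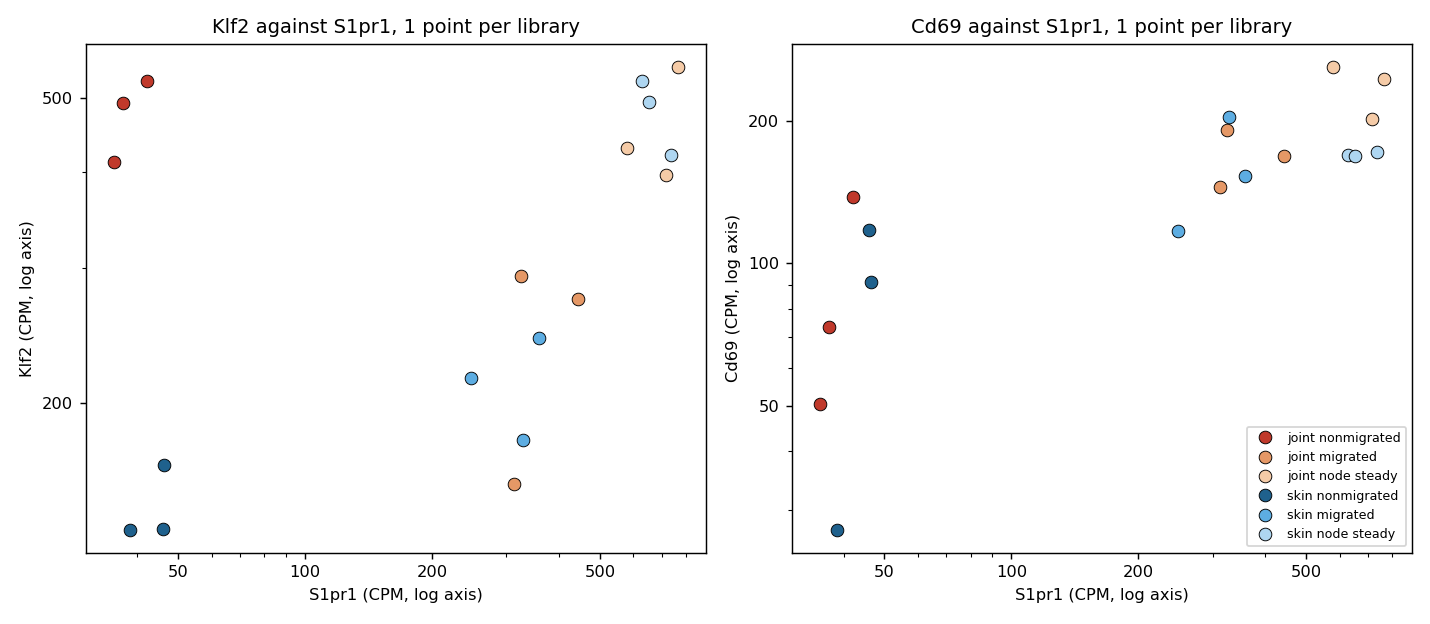
Klf2 (left) and Cd69 (right) against S1pr1, each in CPM on log axes, 1 point per library. The 3 joint nonmigrated libraries combined 35.2 to 42.1 CPM of S1pr1 with 412 to 525 CPM of Klf2, apart from all other libraries, and no group paired low Cd69 with high S1pr1.

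Cd69 (ENSMUSG00000030156, chr6:129267325-129275436, minus strand), whose protein removes S1PR1 from the surface, averaged lower in cells that stayed than in cells that left. Joint nonmigrated libraries held 50.5, 73.2 and 138 CPM and joint migrated libraries 169, 192 and 145.5 CPM. Skin nonmigrated libraries held 118, 91.4 and 27.3 CPM and skin migrated libraries 204, 117 and 153 CPM. Replicates of both nonmigrated groups were widely spread, and the skin ranges met at 117 to 118 CPM. The log2 fold change with migration was 0.95 in the joint (SE 0.39, adjusted p 0.0489) and 1.01 in the skin (SE 0.40, adjusted p 0.0381), of which the skin value alone was called. It lay at the fold limit, and 7 of 13 settings lost it, among them leaving out skin nonmigrated replicate 3 (0.60, adjusted p 0.108) or skin migrated replicate 1 (0.78, adjusted p 0.138). The joint value was called without joint nonmigrated replicate 3 (1.45, adjusted p 0.00685). T cell markers summed to 294 and 2080 CPM in joint nonmigrated and migrated cells, and to 704 and 2070 CPM in the skin. B cell markers summed to 191 and 1080 CPM, and to 24.8 and 231 CPM, in the same order. These bulk values do not give Cd69 per lymphocyte, and the part of cell type make-up in them was not tested. Steady nodes held 202 to 261 CPM in the joint and 169 to 172 CPM in the skin, and the differences from migrated cells did not pass the test (adjusted p 0.336 and 0.832). S1pr1 and Cd69 therefore were both higher in migrated than in nonmigrated cells on average, and the ratio of S1pr1 to Cd69 per kb of exon was 1.01 and 1.4 in joint and skin nonmigrated cells, 4.54 and 4.27 in migrated cells and 6.21 and 8.43 in the steady nodes. That scale is not firm either, and without division by length the ratio was 0.475 and 0.653 in joint and skin nonmigrated cells, below 1.

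Sphk1 (ENSMUSG00000061878, chr11:116530925-116536674, plus strand), the kinase that makes S1P, was a transcript of tissue cells and above all of the skin. It stood at 34.5, 25.2 and 22.8 CPM in skin nonmigrated and 5.47, 7.08 and 8.9 CPM in joint nonmigrated libraries. Migrated libraries held 2.19, 2.15 and 3.01 CPM (skin) and 0.616, 2.8 and 2.94 CPM (joint), and steady-state libraries 0.0982 to 0.269 CPM, from 4 to 12 counts each. The 3 states did not overlap within a site. Sphk1 fell 11.2-fold with migration in the skin (log2 fold change -3.48, SE 0.43, adjusted p 3.47e-06) and 3.38-fold in the joint (-1.76, SE 0.40, adjusted p 0.00137), and the site difference of 1.73 (SE 0.57, adjusted p 0.054) just missed the test. It was 3.85-fold lower in joint than in skin nonmigrated cells (-1.94, SE 0.40, adjusted p 0.00148). Migrated cells stood 12.9-fold (joint) and 13.9-fold (skin) above the steady nodes in the fit (adjusted p 2.93e-05 and 1.49e-05), folds that rest on few steady-state counts. The annotated gene Gm29292 overlaps Sphk1 on the opposite strand.

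Sgpl1 (ENSMUSG00000020097, chr10:61098642-61147703, minus strand), the lyase that destroys S1P, was abundant in tissue cells of both sites. Joint nonmigrated libraries held 529, 479 and 406 CPM and skin nonmigrated libraries 469, 455 and 455.5 CPM. Migrated libraries held 122, 181 and 192 CPM in the joint and 173, 194 and 209.9 CPM in the skin, and steady-state libraries 80.2 to 95.0 CPM. Every nonmigrated library thus stood above every migrated library, and these above every steady-state library. Sgpl1 fell 2.86-fold with migration in the joint (log2 fold change -1.52, SE 0.14, adjusted p 1.58e-07) and 2.39-fold in the skin (-1.26, SE 0.14, adjusted p 1.33e-06), under all 13 settings at each site. The nonmigrated groups differed by 0.04 on the log2 scale (SE 0.14, adjusted p 0.873). Skin migrated cells stood 2.35-fold above their steady node (1.23, SE 0.14, adjusted p 1.81e-06), and joint migrated cells 1.77-fold above theirs (0.83, SE 0.14, adjusted p 0.000185), which missed the fold limit but passed it without joint migrated replicate 1 (1.00).

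Spns2 (ENSMUSG00000040447, chr11:72451638-72489904, minus strand), the S1P exporter, ran with S1pr1 rather than with the enzymes. It stood at 6.68, 8.81 and 7.31 CPM in joint nonmigrated and 10.1, 11.6 and 14.0 CPM in joint migrated libraries, and at 2.7, 5.03 and 3.54 CPM in skin nonmigrated and 11.7, 12.1 and 11.3 CPM in skin migrated libraries. Steady-state libraries held 22.6, 23.3 and 23.2 CPM in the joint and 18.1, 15.2 and 13.9 CPM in the skin. Nonmigrated libraries were the lowest at both sites, with no overlap. Spns2 rose 3.12-fold in the skin (log2 fold change 1.64, SE 0.20, adjusted p 2.85e-06), and the joint value was 0.64 (SE 0.19, adjusted p 0.00704), under the fold limit. Among nonmigrated cells it was 2.02-fold higher in the joint (1.02, SE 0.20, adjusted p 0.00108), a call that 5 of 13 settings lost, among them leaving out skin nonmigrated replicate 1 (0.89) or 3 (0.98) or joint nonmigrated replicate 2 (0.90). Against the steady node it was lower by value in joint migrated cells (-0.96, SE 0.18, adjusted p 0.000498), past the fold limit without joint migrated replicate 3 (-1.09), and the skin value was -0.43 (SE 0.18, adjusted p 0.0564). Spns2 overlaps Mybbp1a, a protein-coding gene on the opposite strand, and since the sources used here do not state whether strand was used in library preparation, reads of the pair cannot be told apart. The 8 endothelial markers, the cells best known for Spns2, summed to 66.4 to 252 CPM over the groups, most of it Pecam1 outside the joint tissue, which leukocytes also express. Of the other endothelial genes, Lyve1, which some macrophages also express, averaged 59.6 CPM in joint and 10.9 CPM in skin nonmigrated cells and under 0.2 CPM elsewhere, and Kdr ran from 1.04 CPM in the skin steady node to 25.1 CPM in skin nonmigrated cells. Cdh5 averaged 0.85 to 4.19 CPM and Cldn5, Emcn, Prox1 and Tek 0 to 1.24 CPM over the 6 groups, and the part of endothelial cells in the Spns2 values was not tested.

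**Figure D5:**
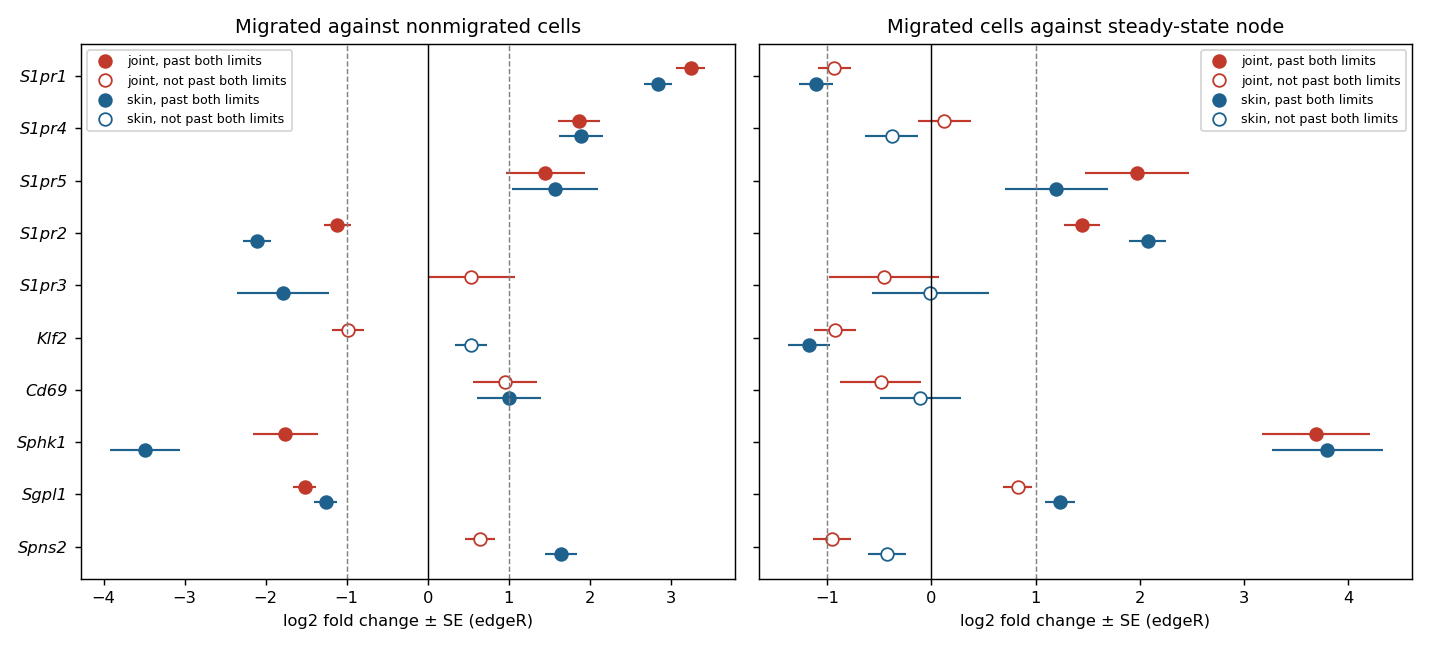
Log2 fold change ± SE of the 10 genes, migrated against nonmigrated cells (left) and migrated cells against the steady-state node (right), for joint and skin. Filled points passed both limits, and dashed lines mark a log2 fold change of 1 in either direction. Klf2 lay on opposite sides of 0 in the left panel, at -0.98 and 0.53.

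Between the sites, several of the genes were called in tissue cells and none in migrated cells. Of the 10, 5 were called between joint and skin nonmigrated cells (2 higher in the joint, Klf2 and Spns2, and 3 lower, S1pr2, S1pr3 and Sphk1), against 15.7% of all genes (6.28% higher and 9.37% lower). S1pr3 was lower in the joint by 2.95-fold (log2 fold change -1.56, SE 0.55, adjusted p 0.0402), with overlapping ranges, and 7 of 13 settings lost that call, among them leaving out skin nonmigrated replicate 1 (-0.74) or 2 (-1.58) or joint nonmigrated replicate 1 (-1.21) or 2 (-1.59). By contrast 0 of 10 were called between joint and skin migrated cells, against 2.24% of all genes, and 0 of 10 between the steady nodes, against 3.11%. The steady nodes also differ in the PBS and Naive titles and in the neutrophil and macrophage markers given above. By edgeR 0 members reached an unadjusted p under 0.05 between the migrated groups, against 3501 of all 18156 tested genes. Between the steady nodes 2 did (Spns2 and S1pr3), against 2867 of 18156, and DESeq2 called 0 in each. A fit of the steady nodes alone called S1pr3 (1.197, adjusted p 0.00236). The difference between the sites in the contrast of migrated with steady node cells, named site and inflammation below, was called for 0 of 10 genes, against 3.67% of all genes. By edgeR 1 member (S1pr2) had an unadjusted p under 0.05, against 3696 of 18156 genes, and DESeq2 called 0. These counts of 0 do not show that the sites were alike.

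Against the steady-state nodes, 3 of 10 genes were called in joint migrated cells, all higher (S1pr2, S1pr5 and Sphk1), against 22.3% of all genes (15.6% higher and 6.65% lower). At an adjusted p under 0.05 with any fold change 7 of 10 passed, against 42.4% of all genes, and leaving out joint migrated replicate 1 raised the called count to 6. In skin migrated cells 6 of 10 were called, 4 higher (S1pr2, S1pr5, Sphk1 and Sgpl1) and 2 lower (S1pr1 and Klf2), against 34.7% of all genes (20.5% higher and 14.3% lower). S1pr2, S1pr5 and Sphk1 were thus higher, and S1pr1 and Klf2 lower in value, in inflamed migrated cells at both sites. These comparisons share the migrated libraries with those above, so the values are given side by side and not as independent evidence.

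Some genes traced the members' patterns closely over the 18 libraries. Likeness was taken as the root mean square difference of log2(CPM + 1), each gene centred on its own mean, among 9127 protein-coding genes with a mean of at least 10 CPM. Nearest to S1pr1 were Rasal1 (0.33), Ablim1 (0.34), Gdf11 (0.35), Il27ra (0.35) and Gimap6 (0.36), where S1pr1 itself varied by 1.72 about its mean. Gimap6, a GTPase gene of lymphocytes, averaged 71.9, 412 and 794 CPM in joint nonmigrated, migrated and steady cells and 79.2, 365 and 940.4 CPM in the skin. Nearest to Klf2 were Fry (0.37), Itih5 (0.37) and Abhd11 (0.37), with Klf2 varying by 0.71. Fry averaged 77.9 CPM in joint nonmigrated and 24.4 CPM in skin nonmigrated cells, which is the split seen for Klf2. Nearest to S1pr4 were Pdcd4 (0.28), Lrrc75b (0.29) and Pkmyt1 (0.29), and nearest to Cd69 were Cdc7 (0.31), Ccdc88c (0.36) and Trp53inp1 (0.36). Among the 7 members with that mean level the closest pairs were S1pr4 with Cd69 (0.51), S1pr4 with Spns2 (0.52) and S1pr2 with Sgpl1 (0.54), and the farthest was S1pr1 with S1pr2 (3.01). These libraries share depth and cell type differences, and the distances are descriptions.

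In the wider list of S1P and sphingolipid metabolism, more genes fell than rose in migrated cells. Of 24 listed genes 22 were tested, and 3 rose and 12 fell in the joint and 7 were not called, beside 16.2% of all genes higher and 18% lower, with a list median log2 fold change of -1.05 against 0.03 for all genes. In the skin 1 rose, 9 fell and 12 were not called, beside 15.8% of all genes higher and 19.6% lower (median -0.89 against 0.01). Acer3, an alkaline ceramidase, fell in both (log2 fold change -3.74, SE 0.25, in the joint and -2.84, SE 0.25, in the skin), as did Cers2, a synthase of very long chain ceramides (-1.11 and -1.28). Degs1, which makes the double bond of ceramide, fell in the joint (-1.42, SE 0.09, 84.3 against 226 CPM), and Abcc1, a transporter that can export S1P, fell in the skin (-1.46, SE 0.14, 114 against 311 CPM). Sgpp2, an S1P phosphatase, rose at both sites from very low levels (2.08, SE 0.47, and 2.67, SE 0.60), to 0.767 and 0.745 CPM, and Cers4 (2.10, SE 0.24) and Acer2 (2.29, SE 0.36) rose in the joint. Between joint migrated cells and their steady node, 2 of the 22 rose (Cers6, log2 fold change 1.60, SE 0.21, and Plpp1, 2.21, SE 0.34), beside 15.6% of all genes. In the same contrast 2 fell (Plpp3, -2.49, SE 0.55, and Sgpp2, -1.64, SE 0.39), beside 6.65% of all genes.

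Few genes through which the receptors signal were called. Of 16 listed, 0 rose and 2 fell in migrated cells of each site, where 34.2% (joint) and 35.4% (skin) of all genes were called in either direction (list medians -0.51 and -0.39, all-gene medians 0.03 and 0.01). Gnaq, a G protein subunit, fell at both (log2 fold change -2.30, SE 0.13, and -2.24, SE 0.13), Gna12 fell in the joint (-1.55, SE 0.21) and Gna13 in the skin (-1.52, SE 0.19), the latter pair being the G proteins used by S1PR2. The Gi subunit gene Gnai2, used by S1PR1, passed the p limit but not the fold limit at either site (-0.68, SE 0.11, and -0.67, SE 0.11). Rgs1, which shortens G protein signals, was the 1 gene of the 16 that rose between the joint steady node and joint migrated cells (2.57, SE 0.35, 69.7 against 414 CPM), beside 15.6% of all genes.

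In a list of 13 homing genes linked to KLF2 and FOXO1, 8 rose and 0 fell in joint migrated cells (median 1.06), beside 16.2% of all genes higher and 18% lower. In skin migrated cells 6 rose and 1 fell (median 0.89), beside 15.8% higher and 19.6% lower, and Klf2 itself was called at neither site. Foxo1, a factor of resting lymphocytes, rose at both sites (log2 fold change 1.98, SE 0.13, and 1.38, SE 0.13), as did Tcf7, a T cell factor (4.07, SE 0.31, and 3.04, SE 0.29). Il7r, the IL-7 receptor, rose in the joint (2.10, SE 0.20, 392.3 against 91.4 CPM), Lef1 rose in the skin (2.65, SE 0.35), and Mapk7, which encodes the kinase ERK5 upstream of Klf2, fell in the skin (-1.37, SE 0.15, 46.8 against 121 CPM). Between the joint steady node and joint migrated cells 0 rose and 1 fell (Lef1, -1.26, SE 0.32), beside 15.6% of all genes higher and 6.65% lower. T cell markers rose in the same comparisons (8 of 8 in the joint and 6 of 8 in the skin), and their part in these counts was not tested.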

How the data were processed

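RNA from sorted mouse leukocytes (18 libraries, 6 groups of 3) was sequenced by the authors as paired 100 bp reads. Per the study's methods and the labels, they checked reads with FastQC, trimmed them with Trim Galore, aligned them to mm10 with TopHat2 and counted reads per Ensembl gene with HTSeq-count defaults. Tool versions are not given in the sources used here. The deposited values are raw counts, 1 per gene and library, for 49585 genes. The 5 HTSeq summary lines, 11.3% to 15.1% of the tallies, were left out. Of the genes, 49326 matched GENCODE M21, which supplied symbols, lengths and positions (GRCm38).

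Depth ran from 19239531 to 43814403 assigned counts, and 3 counts equal 0.0616 to 0.18 CPM. All 18 libraries were fitted together in edgeR 4.0.16 (R 4.3.3, limma 3.58.1) with TMM scaling, filterByExpr at a minimum count of 10, and the quasi-likelihood F test, with group as the only term. SE was taken as the size of the log2 fold change over sqrt(F). The script was tested on simulated data. Replicates within groups differed by far more than sampling noise, their chi-square statistics being 16.2 to 130 times the degrees of freedom, so no library was merged. DESeq2 1.42.0, Python 3.11.15, pandas 2.3.3, numpy 2.4.6 and matplotlib 3.10.9 were also used.

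The 10 genes, the pathway lists and the marker lists were chosen with earlier results of these data known. Named genes were the 10 members, up to 3 called genes per direction with the smallest adjusted p in each list for the 2 migration comparisons and for joint migrated against joint steady cells, the nearest genes by pattern, and the markers. Gnai2, and in the contrast of nonmigrated cells the early activation genes, were named after their values were seen. Alternatives were an adjusted p under 0.001, DESeq2 size factors, the DESeq2 Wald test, no filter, fits of 12 libraries or of only the groups compared, a replicate block within site, leaving out each library, and, for levels between genes, no division by length or coding length (for ratios chosen after seeing the data).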

Additional observations from a re-analysis of the deposited data

Results flagged for a closer look

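For 3 of the 10 genes, the change between nonmigrated and migrated cells differed between joint and skin by the interaction term of the edgeR fit. The log2 difference (joint change minus skin change) was -1.52 for Klf2 (SE 0.28, adjusted p 0.00234), -0.996 for Spns2 (SE 0.27, adjusted p 0.0224) and 0.99 for S1pr2 (SE 0.24, adjusted p 0.0111). The share of all genes past the p limit alone is not given here. At an unadjusted p under 0.05 in the same edgeR test, 5 of the 10 genes and 5312 of all 18156 passed. The Klf2 term passed both limits, against 9.17% of all genes, and those of Spns2 and S1pr2 fell just short of the fold limit. In each of the 3 the nonmigrated groups differed between the sites while the migrated groups did not pass the test. The inflamed skin libraries had a lower depth and another column style, which cannot be told apart from the site. Groups of 3 are too small for a test of single outlying libraries.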

How the results depend on the processing

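Direction and call of S1pr1, S1pr4 and Sgpl1 with migration at both sites, and of S1pr2, Sphk1 and Spns2 in the skin, held under every alternative run. The cause of the other changes was not tested. Among alternative values of single members, 1160 kept direction and call, 46 lost the call, 41 gained it and 42 turned sign, all of the latter among uncalled values.

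The members called between joint and skin nonmigrated cells (5) became 2 at an adjusted p under 0.001 and 3 in a fit of these groups alone, and 3 to 5 leaving out libraries. For the interaction of site and migration (1 member), the count was 0 at 0.001, 2 with DESeq2 size factors, 4 with the DESeq2 Wald test, 4 without a filter and 1 to 4 leaving out libraries. The steady nodes fitted alone gave 1 (S1pr3). Leaving out libraries gave 3 to 6 for joint migrated against steady cells. The 0.001 limit alone ended the Sphk1 calls with migration in the joint and between nonmigrated groups.

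Without division by length, or with coding length, the S1pr1 share of the receptor sum was 32.1% or 31.3% in joint nonmigrated, 70.1% or 70.0% in joint migrated, 84.1% or 84.2% in joint steady, 24.5% or 23.3% in skin nonmigrated and 84.4% or 84.5% in skin steady cells. In the same order of groups, with skin migrated cells before skin steady cells, the S1pr2 share was 35.0% or 37.0%, 3.76% or 4.08%, 0.866% or 0.941%, 57.3% or 59.3%, 5.61% or 6.07% and 0.705% or 0.766%, and the S1pr4 share 29.2% or 28.2%, 24.6% or 24.3%, 14.2% or 14.1%, 13% or 12.3%, 20.7% or 20.5% and 14.4% or 14.3%. Under these scales, tried for ratios after seeing the data, S1pr1 fell below S1pr2 in joint (0.946 or 0.872) and skin (0.428 or 0.395) nonmigrated cells, and below Cd69 in the same groups (0.475 or 0.247 and 0.653 or 0.34). Changes of a single gene between groups do not depend on length.

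The replicate numbers were tested as a pairing within each site. Deviations of same-numbered nonmigrated and migrated libraries correlated at 0.021, 0.254 and 0.195 in the joint and 0.173, 0.073 and 0.148 in the skin. These values were small but all positive. The main tests did not pair the samples by number, and whether the numbers mark the same pools of mice is not settled. With the replicate block 3 members were called in the interaction (S1pr2 and Spns2 joined Klf2), 1450 of all genes against 1664, Cd69 was called with migration in the joint (1.03), S1pr5 was no longer called between skin migrated and steady cells (1.11), and the S1pr3 difference of skin migrated and steady cells, -0.013, was 0.058 (0.019 in the 12 library fit). In the joint 2 of 3 nonmigrated and 3 of 3 migrated libraries, and in the skin 3 of 3 of each, correlated best with their own number, a hint from the data.

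Leaving out libraries turned the sign of uncalled values. Between nonmigrated groups Cd69 ran from -0.344 to 0.628 and Sgpl1 from -0.053 to 0.137. In the interaction of site and migration S1pr4 ran from -0.39 to 0.231, S1pr5 from -1.351 to 0.304 and Cd69 from -0.502 to 0.44. Between migrated groups Cd69 ran from -0.079 to 0.319, Sphk1 from -0.528 to 0.228 and Spns2 from -0.112 to 0.126. Between skin migrated and steady cells S1pr3 ran from -0.564 to 0.247 and Cd69 from -0.329 to 0.068. Between joint migrated and steady cells S1pr4 ran from -0.080 to 0.283. Between the steady nodes S1pr1 ran from -0.054 to 0.142, S1pr4 from -0.129 to 0.151, Klf2 from -0.214 to 0.029 and Sphk1 from -0.337 to 0.421, and in the interaction of site and inflammation S1pr3 ran from -0.864 to 0.129 and Sphk1 from -0.634 to 0.335.

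Over all genes, the 0.001 limit cut the calls from 2843 to 1104 (nonmigrated groups), 407 to 38 (migrated groups), 1664 to 301 (site and migration), 4048 to 2392 and 6308 to 3958 (joint and skin migrated against steady), 565 to 223 (steady nodes) and 666 to 117 (site and inflammation). Fits of 12 libraries or of the groups compared gave 191 or 251 for the migrated groups, 1029 for site and migration and 1045 for site and inflammation, and the nonmigrated groups alone gave 1666. The Wald test gave 1046 for site and inflammation. Leaving out skin nonmigrated replicate 3 gave 3053 for site and migration, skin migrated replicate 3 gave 268 for the migrated groups, and skin steady replicate 2 or 3 gave 368 for the steady nodes, replicate 2 also 436 for site and inflammation.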

Other observations

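With migration, tissue retention genes were called about as often as all genes, so these counts are not read as particular to the list. Of 10 listed, 2 rose and 2 fell in joint migrated cells, and 0 rose and 3 fell in skin migrated cells, where 34.2% (joint) and 35.4% (skin) of all genes were called in either direction. Itga1, an integrin that binds collagen, fell at both sites (log2 fold change -2.04, SE 0.24, in the joint and -2.83, SE 0.25, in the skin), as did the ATP receptor gene P2rx7 (-2.93, SE 0.25, and -3.42, SE 0.26). Cdh1, the gene of E-cadherin, fell in the skin (-4.35, SE 0.26, 7.21 against 147 CPM), beside keratinocyte markers that averaged 148 CPM in skin nonmigrated and 0.853 to 2.05 CPM in the other 5 groups. Itgae, whose integrin binds E-cadherin, rose in the joint (3.84, SE 0.32, 162 against 11.4 CPM), as did Cxcr6 (1.36, SE 0.34). Against the joint steady node, 6 of the 10 rose in joint migrated cells and 0 fell, beside 15.6% of all genes higher and 6.65% lower, among them Prdm1 (2.62, SE 0.17, 61.1 against 9.94 CPM), Itga1 (2.64, SE 0.26) and Ahr (1.39, SE 0.18).

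Of 13 early activation genes, 3 rose and 6 fell in joint migrated cells, beside 16.2% of all genes higher and 18% lower, and 4 rose and 5 fell in skin migrated cells, beside 15.8% and 19.6%. The surface receptor genes Il2ra (3.49, SE 0.36, and 1.56, SE 0.34) and Icos (2.89, SE 0.45, and 1.61, SE 0.43) rose at both sites, and Tnfrsf9 rose in the joint (1.57, SE 0.32). The rapid-response factors Egr2 (-3.50, SE 0.18, and -2.16, SE 0.18) and Fos (-3.19, SE 0.20, and -1.66, SE 0.19) fell at both, Fosb fell in the joint (-2.80, SE 0.36) and Egr1 in the skin (-2.49, SE 0.34), while Nr4a1 rose in the skin (1.13, SE 0.37). Against the joint steady node, 4 rose in joint migrated cells, Il2ra (3.10, SE 0.35), Tnfrsf9 (2.46, SE 0.33) and Icos (1.60, SE 0.43) among them, beside 15.6% of all genes. In that contrast 1 fell (Egr3, -1.36, SE 0.23), beside 6.65% of all genes.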
